A study of Mus musculus with 6 samples.

Results

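The heat shock proteins described here are 10 genes taken by symbol from a table of 15803 genes. They are Hspa1a, Hspa1b and Hspa8 of the HSP70 family, Hsp90aa1 and Hsp90ab1 of the HSP90 family, the small heat shock proteins Hspb1 and Hspb8, the cofactors Hsph1 and Dnajb1, and the chaperonin Hspd1. Of these, 9 had a row that was used, Hspa1b was not analysed here, and 8 had a mean of at least 1 CPM (the reads on a gene scaled to a common library total) and were tested among 12155 genes. Although the set was named for the cytosol, Hspd1 is the chaperonin of the mitochondrial matrix, so the group is called heat shock proteins in what follows.

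RNA from the growth plate cartilage of mouse embryos at E18.5, shortly before birth, was sequenced in 6 libraries, 3 labelled CKO and 3 labelled WT. The CKO embryos were Col2a1-Cre;Hnrnpk fl/fl, in which Cre recombinase under the Col2a1 promoter of chondrocytes removes the floxed part of Hnrnpk, an RNA-binding protein of the nucleus. The WT embryos were Hnrnpk fl/fl and carried the floxed alleles without Cre. Nothing in the labels says that the 3 libraries of a genotype came from separate embryos, so the p-values measure the spread between these libraries, which may be technical.

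The count over the whole of the targeted gene did not separate the labels. The floxed part covers only some of its exons, and such a count does not set them apart. The paper reported effective loss of the protein in the growth plate of younger CKO embryos, by western blot and immunostaining. Hnrnpk stood at 842, 955 and 944 CPM in WT 1, 2 and 3, against 759, 949.9 and 780.0 CPM in CKO 1, 2 and 3, with a log2 fold change of -0.14 and an adjusted p of 0.622 by limma. The reads recovered from the CPM summed to between 1153871 and 1454094 in a library, so that 1 read was worth 0.688 to 0.867 CPM and 3 reads, taken as the floor, 2.06 to 2.60 CPM. The 10 chondrocyte markers had a summed level of 27133 to 34187 CPM in WT and 6726 to 7275 CPM in CKO, and none was at 0 in 3 or more libraries. All 10 had a negative log2 fold change, and 8 were called lower (limma, adjusted p under 0.05), beside 2.6% of all genes tested. In bulk RNA, fewer cells of a type and less RNA per cell cannot be told apart.

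Heat shock proteins are molecular chaperones that bind unfolded or unstable proteins and help them to fold, to be held or to be degraded. HSP70 works with J proteins, which bring clients and stimulate its ATPase, and with nucleotide exchange factors. HSP90 receives clients such as kinases and steroid receptors through cochaperones, and small heat shock proteins hold unfolded proteins without ATP. Many of these genes have both basal expression and induction by heat shock factor 1 (Hsf1), which binds inverted repeats of a short GAA unit in their promoters. Chondrocytes secrete large amounts of collagen and proteoglycan, and the folding of secreted proteins is the task of a separate set of chaperones in the endoplasmic reticulum (ER).

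Promoters of the heat shock proteins were read for these repeats, because the members share this known regulator. RefSeq windows of 300 bases on GRCm38.p6, from 250 before to 50 after a transcription start, were found for 7 of the 10 genes, namely Hspa1a, Hspa1b, Hspb1, Hspb8, Hsph1, Dnajb1 and Hspd1. The shorter motif searched was GAANNTTC or TTCNNGAA, each of which is its own reverse complement. The longer motif was GAANNTTCNNGAA or its reverse complement TTCNNGAANNTTC, which contain both forms of the shorter one. The shorter motif lay in the windows of 6 of the 7 genes and in 17.0% of all 27025 genes with a window. The longer motif lay in those of Hspd1 and Hsph1 and in 0.662% of all genes. Dnajb1 held neither, which says only that these letters are not in its windows. The 4 sequences below carry the matches before the start, with the matched bases in capitals. They are shown 5′ to 3′ on the strand of the gene, in full for Hspa1a and Hspb1, and as 30 bases for Hspd1 and Hsph1, whose windows overlap another annotated transcript of the gene.
Hspa1a chr17:34972157-34972406 (minus strand): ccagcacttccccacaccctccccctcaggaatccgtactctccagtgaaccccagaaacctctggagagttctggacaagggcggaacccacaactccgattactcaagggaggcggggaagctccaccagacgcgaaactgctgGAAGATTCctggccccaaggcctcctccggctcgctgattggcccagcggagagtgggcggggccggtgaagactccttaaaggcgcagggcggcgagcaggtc
Hspb1 chr5:135887669-135887918 (plus strand): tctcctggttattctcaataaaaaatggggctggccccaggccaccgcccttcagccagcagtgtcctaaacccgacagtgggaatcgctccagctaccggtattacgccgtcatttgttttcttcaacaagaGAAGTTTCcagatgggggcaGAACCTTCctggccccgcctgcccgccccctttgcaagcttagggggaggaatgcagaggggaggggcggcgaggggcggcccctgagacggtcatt
Hspd1 chr1:55088053-55088082 (minus strand): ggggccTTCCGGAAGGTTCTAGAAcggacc
Hsph1 chr5:149636351-149636380 (minus strand): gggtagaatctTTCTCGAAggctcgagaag
Hspd1 has windows at 2 starts. The window before the outer start, at the annotated 5′ end of the gene, held 0 matches of either motif in the 250 bases before it. The capitals shown belong to the window of the inner start and form a run of 18 bases with 3 overlapping matches to the shorter motif, the first at position -144 from that start, and 2 overlapping matches to the longer one. Hspb1 held matches to the shorter motif at -117 and -97, and Hspa1a held 1 at -104. The window of Hspa1b, at chr17:34959239-34959488, differed from that of Hspa1a at 3 of the 250 bases before the start and held the same match at -104. Hsph1 also has 2 starts. The match shown lies at -33 from the outer and at -54 from the inner, and the longer motif lay after them, at 37 and 16. The match of Hspb8 lay at 3 after the start. A match describes the letters and no binding was measured.

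All 8 tested heat shock proteins had a higher mean of log2(CPM + 1) in CKO than in WT, but 1 of them, Hsp90aa1, passed the test (limma, adjusted p under 0.05 over 12155 genes). None was called lower. At an unadjusted p under 0.05, 4 were higher (Hsp90aa1, Hsp90ab1, Hspb8 and Hspd1) and 0 lower, a cut that 11.2% of all genes tested met upward and 10.1% downward. By the criterion of the study (unadjusted p under 0.05 with a log2 fold change past 1), which 5.3% of all genes met upward and 5.1% downward, Hsp90aa1 and Hspb8 were higher and none lower. Of all genes tested, 3.18% were called higher and 2.6% lower, and 50.8% had a positive log2 fold change. All 3 CKO libraries stood above all 3 WT libraries in 5 of the 8 (Hsp90aa1, Hsp90ab1, Hspb8, Dnajb1 and Hspd1), compared with 14.5% of all genes. The median log2 fold change of the 8 was 0.53, beside 0.01 over all genes. It was 0.29 without CKO 2, the library in which 5 of the 8 were highest.

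**Figure D1:**
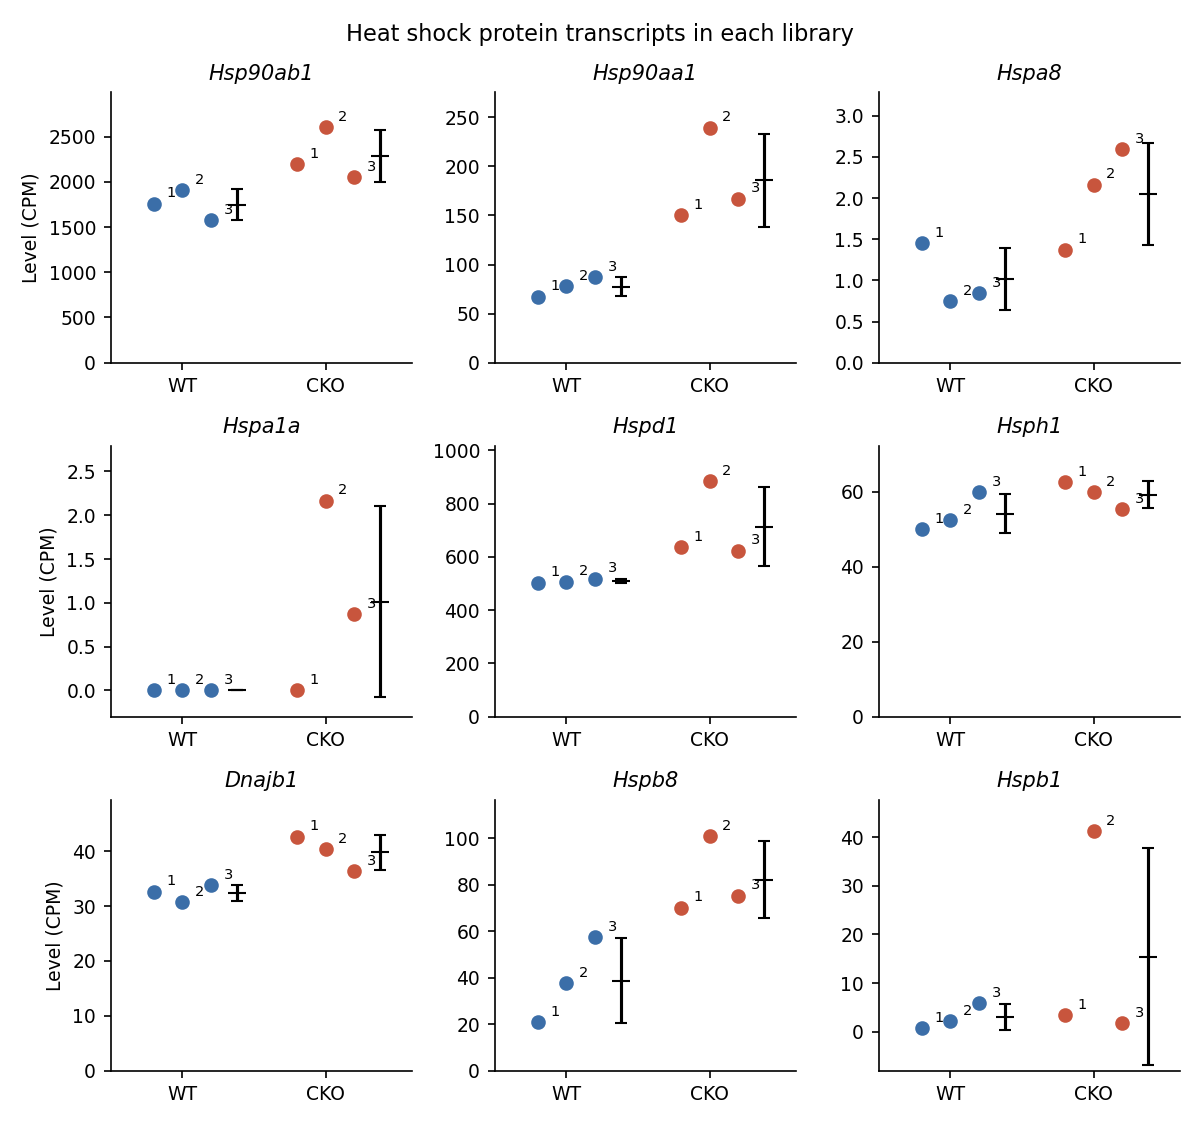
Level in CPM of the 9 heat shock proteins with a row, on linear axes, in the libraries labelled WT (blue) and CKO (red), with the library number beside each point and the mean ± SD (n = 3) in black. The CKO points of Hsp90aa1 (151 to 239.6 CPM) lie above those of WT (67.4 to 87.0 CPM), while Hspb1 is set apart by the point of CKO 2 at 41.1 CPM and Hspa1a and Hspa8 lie at or under the level of 3 reads.

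Levels were compared between genes per kilobase of annotated exon in WT. Hsp90ab1 led with a mean of 583 CPM per kb, followed by Hspd1 with 193 CPM per kb. Hspb8 (19.8 CPM per kb, 10.8 to 29.5 over the libraries) and Hsp90aa1 (19.7 CPM per kb, 17.1 to 22.1) could not be put in order. Dnajb1 followed with 10.1 CPM per kb, Hsph1 with 7.46, Hspb1 with 2.87 and Hspa8 with 0.236. The values of Hspb1 and Hspa8 rest on 1 to 7 and 1 to 2 reads a library. Hsp90ab1, Hspd1, Hsp90aa1, Hspb1 and Hspa8 have near-identical annotated copies, and how shared reads were counted is not given. The order is therefore one of counted reads. Hspa1a was at 0 in WT.

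The HSP90 pair comprised the gene that was called. Hsp90aa1 (ENSMUSG00000021270, chr12:110690605-110702728, minus strand) encodes the stress-inducible cytosolic HSP90. It stood at 67.4, 78.0 and 87.0 CPM in WT 1, 2 and 3, against 151, 239.6 and 167 CPM in CKO 1, 2 and 3. The groups did not overlap, with 93 to 104 reads a library in WT and 193 to 332 in CKO. The mean was 77.5 ± 9.81 CPM in WT and 186 ± 47.3 CPM in CKO (SD, n = 3), a ratio of 2.40. The log2 fold change was 1.23 (SE 0.21, 95% interval 0.77 to 1.69) with an adjusted p of 0.00931 by limma. It kept its direction with each library left out, between 1.03 without CKO 2 and 1.37. The adjusted p by limma was 0.00405 without CKO 2, but 0.0570 without WT 1 and 0.0519 without WT 2. Annotated transcripts of 4 other genes match Hsp90aa1 at 90% or more over at least 300 bp, the closest at 99.5% over 2255 bp, and none of them was analysed here, so reads from such copies cannot be told apart from its own where sequences are shared.

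Hsp90ab1 (ENSMUSG00000023944, chr17:45567775-45573271, minus strand) encodes the constitutive form and was the most abundant member. Its level was 1761, 1913 and 1575 CPM in WT and 2200.0, 2605 and 2053 CPM in CKO, in the order of the library numbers. The groups did not overlap, yet the log2 fold change of 0.38 (SE 0.15, 95% interval 0.05 to 0.72) did not pass after adjustment (limma, adjusted p 0.175). The longest stretch that the search for copies kept between transcripts of Hsp90aa1 and Hsp90ab1 was 80.4% identical over 199 bp. Stretches under the identity cut of that search were dropped, so the value does not give their full likeness. Another 2 annotated genes match Hsp90ab1 at up to 91.8%.

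Hsp90aa1 took a larger share of the reads on the HSP90 pair in CKO. This restates the levels given above, in a ratio chosen after the values were seen, and is no separate result. The share was 3.69% in WT 1 (Wilson 95% interval 3.02 to 4.50), 3.92% in WT 2 (3.25 to 4.73) and 5.24% in WT 3 (4.34 to 6.31). It was 6.41% in CKO 1 (5.63 to 7.28), 8.42% in CKO 2 (7.60 to 9.33) and 7.53% in CKO 3 (6.57 to 8.62). The intervals cover counting error only, since PCR copies of a molecule were not told apart. The shares of the genotypes did not overlap, although the intervals of WT 3 and CKO 1 did, and Hsp90ab1 carried most of the HSP90 reads in every library.

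The HSP70 genes lay at or under the floor of 3 reads in every library. Hspa1a (ENSMUSG00000091971, chr17:34969190-34972156, minus strand), the classical heat-inducible HSP70, had 0 reads in the 3 WT libraries and 0, 3 and 1 reads in CKO 1, 2 and 3. Both groups lay at or under the floor, so no fold is given, and a two-sided exact permutation test over the 6 libraries gave p = 0.4, where the smallest possible value is 0.1. Hspa1a and Hspa1b are 99.2% identical over 2201 bp of transcript, and how the counting treated reads that match both is not given in the sources used here. Hspa8 (ENSMUSG00000015656, chr9:40800984-40810087, plus strand), the constitutive HSP70 that most cells make in large amounts, had 2, 1 and 1 reads in WT and 2, 3 and 3 reads in CKO. Its 13 near-identical annotated copies (at least 90% over 300 bp), 4 of them at 98% or more, were not analysed here, and their part in the low count was not tested. Limma gave Hspa8 a log2 fold change of 0.59 with an adjusted p of 0.509, from values at or under the floor.

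Neither HSP70 cofactor of the set passed the test. Hsph1 (ENSMUSG00000029657, chr5:149614287-149636376, minus strand), the HSP110 nucleotide exchange factor of HSP70, stood at 50.0, 52.5 and 60.0 CPM in WT, against 62.6, 59.9 and 55.5 CPM in CKO. The groups overlapped, and the log2 fold change was 0.13 (95% interval -0.28 to 0.54, limma adjusted p 0.735). Dnajb1 (ENSMUSG00000005483, chr8:83608193-83612653, plus strand), the J protein HSP40, had 32.6, 30.8 and 33.8 CPM in WT and 42.6, 40.4 and 36.4 CPM in CKO. Here the groups did not overlap, with a log2 fold change of 0.29 (SE 0.20, 95% interval -0.16 to 0.74) and an adjusted p of 0.456 by limma. Neither gene has a near-identical annotated copy.

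Among the small heat shock proteins, Hspb8 came close to the threshold and Hspb1 rested on 1 library. Hspb8 (ENSMUSG00000041548, chr5:116408491-116422864, minus strand) acts with Bag3 in the removal of misfolded proteins by autophagy. It stood at 21.0, 37.5 and 57.4 CPM in WT, against 70.1, 101 and 75.4 CPM in CKO. The mean was 38.7 ± 18.2 CPM in WT and 82.2 ± 16.5 CPM in CKO (SD, n = 3), with no overlap of the libraries. The log2 fold change of 1.16 (SE 0.33, 95% interval 0.44 to 1.88) had an adjusted p of 0.0660 by limma. It passed without WT 3, the WT library with the highest level (limma, adjusted p 0.0221), and with DESeq2 on the recovered reads (adjusted p 0.0393). Bag3, chosen after the values were seen, had a log2 fold change of 0.28 with an adjusted p of 0.511 by limma.

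Hspb1 (ENSMUSG00000004951, chr5:135887919-135889563, plus strand), the actin-associated HSP27, had 1, 3 and 7 reads in WT and 5, 57 and 2 reads in CKO. In CPM these were 0.725, 2.25 and 5.91 in WT and 3.44, 41.1 and 1.73 in CKO. CKO 2 stood far above the rest, and CKO 1 and CKO 3 lay within the range of WT. The log2 fold change was 1.24 with a wide 95% interval of -0.79 to 3.27 (limma, adjusted p 0.478), and it was 0.04 without CKO 2. Another 2 annotated genes match Hspb1 closely, at up to 99.8% over 477 bp, and neither was analysed here.

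Hspd1 (ENSMUSG00000025980, chr1:55077835-55088243, minus strand), the mitochondrial HSP60, stood at 504, 507 and 519 CPM in WT, against 635, 883 and 623 CPM in CKO. The WT libraries lay close together and all 3 CKO libraries stood above them, with CKO 2 the highest. The log2 fold change was 0.47 (SE 0.16, 95% interval 0.10 to 0.83) with an adjusted p of 0.134 by limma, and 0.30 without CKO 2. Hspe1, the HSP10 lid of the same chaperonin, which is transcribed from the opposite side of the same promoter, had 1165, 1138 and 928 CPM in WT and 1325, 1237 and 1302 CPM in CKO. Its log2 fold change was 0.27 (limma, adjusted p 0.321). Of the 5 annotated genes with stretches near-identical to Hspd1, 1 matches at 98% or more, and none was analysed here.

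**Figure D2:**
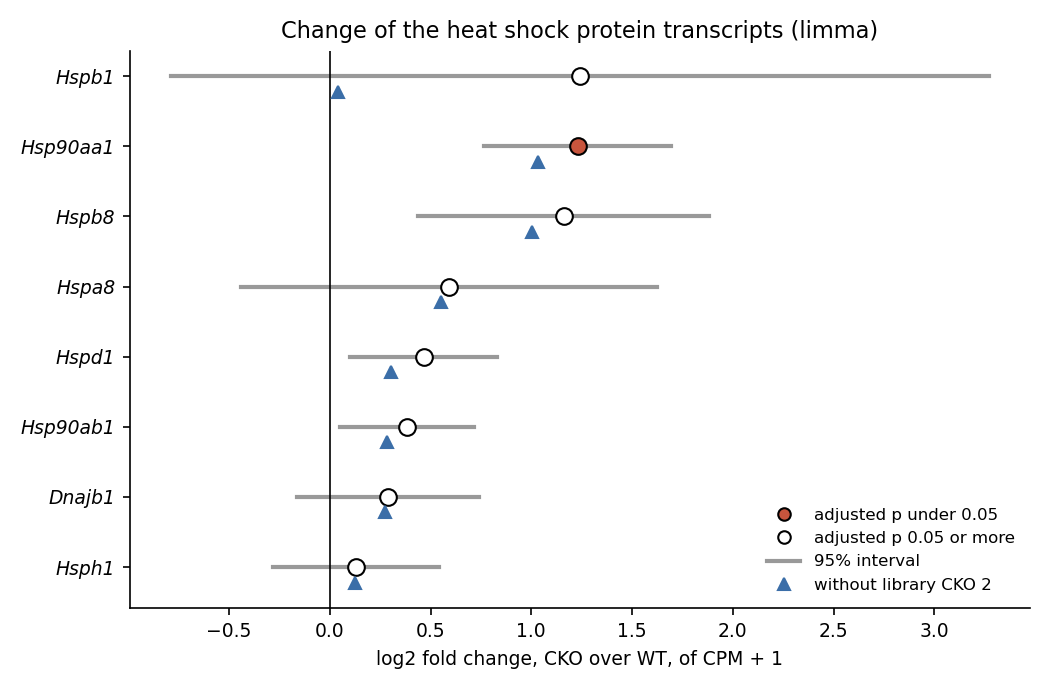
Log2 fold change (CKO over WT, of CPM + 1) of the 8 tested heat shock proteins by limma, with 95% intervals as grey lines, a filled circle for an adjusted p under 0.05 and a triangle for the value without the library CKO 2. All 8 circles lie right of 0, the filled one is Hsp90aa1 at 1.23, and the triangle of Hspb1 falls to 0.04.

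The wider chaperone network was read from 9 lists of 101 genes outside the set, of which 97 were tested. Of these, 7 were called higher and 3 lower, together 10.3%, beside 5.78% of all genes tested. The 7 higher genes were Stip1, Ppid, Cryab, Cct3, Pfdn1, Pfdn4 and Pfdn6, and the 3 lower ones were Stub1, Dnajb6 and P4hb. None of these 10 calls held with each library left out in turn: no list gene was called without WT 1, WT 2, CKO 1 or CKO 3, 3 were called higher and 1 lower without WT 3, and 10 higher and 8 lower without CKO 2.

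The lists nearest to HSP90 and HSP70 held genes that moved either way. Stip1 (HOP), which hands clients from HSP70 to HSP90, rose from 122, 135 and 184 CPM in WT to 252, 279 and 261 CPM in CKO (log2 fold change 0.86, SE 0.18, limma adjusted p 0.0237). Ppid (cyclophilin 40), an immunophilin that binds HSP90, rose from 107, 138 and 126 CPM to 215, 305 and 192 CPM (log2 fold change 0.91, SE 0.20, limma adjusted p 0.0282). Neither pair of groups overlapped. Ppid was the 1 called gene of 15 HSP90 cochaperones, whose median log2 fold change was -0.06. Of all genes tested, 3.18% were called higher and 2.6% lower. At an unadjusted p under 0.05 by limma, 1 cochaperone was higher and 3 lower, beside 11.2% and 10.1% of all genes. Cdc37, the kinase-specific cochaperone, had the highest mean CPM of the 15 over the 6 libraries, with a log2 fold change of -0.06 (limma, adjusted p 0.867). Per kilobase of exon in WT, Cdc37 had 24.3 CPM and Ppid 26.7 CPM.

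Among 10 HSP70 cofactors Stip1 was called higher and Stub1 lower, beside 3.18% and 2.6% of all genes tested. The HSP70-interacting protein St13, highest in mean CPM over the 6 libraries, had a log2 fold change of 0.19 (limma, adjusted p 0.520). Per kilobase of exon in WT, St13 had 19.4 CPM, less than Stub1 (91.5 CPM) and Stip1 (69.9 CPM). Stub1 (CHIP), the ubiquitin ligase that marks clients of HSP70 and HSP90 for degradation, fell from 230, 189 and 284 CPM in WT to 122, 149 and 103 CPM in CKO (log2 fold change -0.90, SE 0.20, limma adjusted p 0.0301). Of 14 J proteins, Dnajb6, which holds back protein aggregation, fell from 246, 206 and 206 CPM to 116, 146 and 146 CPM (log2 fold change -0.69, SE 0.17, limma adjusted p 0.0408). The other 13 did not pass by limma, among them Dnaja2, highest in mean CPM over the 6 libraries (log2 fold change 0.09, limma adjusted p 0.808). Dnajc7 was called lower by edgeR (adjusted p 0.0460) but not by limma (adjusted p 0.0859) or DESeq2 (adjusted p 0.110). The 1 lower call by limma among the J proteins stands beside 2.6% of all genes. At an unadjusted p under 0.05 by limma, 4 of the 14 were lower and 0 higher, beside 10.1% and 11.2% of all genes. None of 7 other HSP70 proteins passed by limma, at a median log2 fold change of 0.55. None passed by edgeR or DESeq2 either, but edgeR gave an adjusted p for Hspa4, Hspa13 and Hspa14 only. DESeq2 gave none for Hspa4l and Hspa12a, which lay at 0.725 to 6.50 CPM and 0 to 4.33 CPM. At an unadjusted p under 0.05 by limma, 3 were higher, beside 11.2% of all genes. The ribosome-associated Hspa14, highest in mean CPM over the 6 libraries, had a log2 fold change of 0.55 (limma, adjusted p 0.120).

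The folding machinery for actin and tubulin held 4 of the 7 higher calls. TRiC is the ring-shaped cytosolic chaperonin, and prefoldin delivers unfolded actin and tubulin to it. Of their 13 tested subunits, 4 were called higher and none lower by limma, beside 3.18% and 2.6% of all genes tested. By edgeR 4 were called higher and by DESeq2 2, and none lower. All 3 CKO libraries stood above WT in 9, beside 14.5% of all genes, and the median log2 fold change was 0.35. The TRiC subunit Cct3 rose from 166, 179 and 253 CPM in WT to 345, 397 and 346 CPM in CKO (log2 fold change 0.88, SE 0.18, limma adjusted p 0.0234). The prefoldin subunits Pfdn1, Pfdn4 and Pfdn6 had log2 fold changes of 0.75, 0.69 and 0.69 (limma, adjusted p 0.0317, 0.0376 and 0.0459). Pfdn4 and Pfdn6 did not pass by DESeq2 (adjusted p 0.0602 and 0.0859). The subunits did not move as one. Pfdn5, highest in mean CPM over the 6 libraries, had a log2 fold change of -0.02 (limma, adjusted p 0.961). Cct4, chosen after its values were seen, had one of -0.04 (limma, adjusted p 0.908).

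The other small heat shock proteins held the call with the greatest log2 fold change of the 10. Cryab (alpha B-crystallin), a small heat shock protein of lens and muscle that binds desmin and other filaments, rose from 65.2, 69.0 and 118 CPM in WT to 238, 169.6 and 264 CPM in CKO (log2 fold change 1.43, SE 0.25, limma adjusted p 0.0115). Cryab was the 1 called higher of the 5 tested, beside 3.18% of all genes. Hspb11, highest in mean CPM of the 5, had a log2 fold change of -0.04 (limma, adjusted p 0.954). Because Cryab is also abundant in muscle, the 14 skeletal muscle markers are given beside it. Their summed level was 71.3 to 312 CPM in WT and 146 to 311 CPM in CKO, and Myh3, Myh8, Actn2 and Actn3 were at 0 in 3 or more libraries. None of the 10 tested was called by limma, edgeR or DESeq2. At an unadjusted p under 0.05 by limma, 1 was higher, beside 11.2% of all genes.

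Genes of Hsf1 and its regulation did not pass in either direction by limma (4 tested, median log2 fold change -0.38). By edgeR and DESeq2 an adjusted p was given for Hsf1 and Hsbp1 only, and neither passed. The other genes, Hsf2 (1.73 to 7.60 CPM) and Hsbp1l1 (0 to 4.35 CPM), had few reads. Hsbp1l1 was the 1 gene lower at an unadjusted p under 0.05 by limma, beside 10.1% of all genes. Hsf1 itself, chosen after its values were seen, stood at 48.6, 28.5 and 45.6 CPM in WT and 35.8, 30.3 and 41.6 CPM in CKO, which overlapped (log2 fold change -0.16, limma adjusted p 0.769). Hsbp1, a binding partner that restrains Hsf1 and the highest of the list in mean CPM, had a log2 fold change of 0.25 (limma, adjusted p 0.378). None of 13 mitochondrial chaperones passed by any of the 3 tools, at a median log2 fold change of -0.10. At an unadjusted p under 0.05 by limma, 1 was higher and 1 lower, beside 11.2% and 10.1% of all genes.

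**Figure D3:**
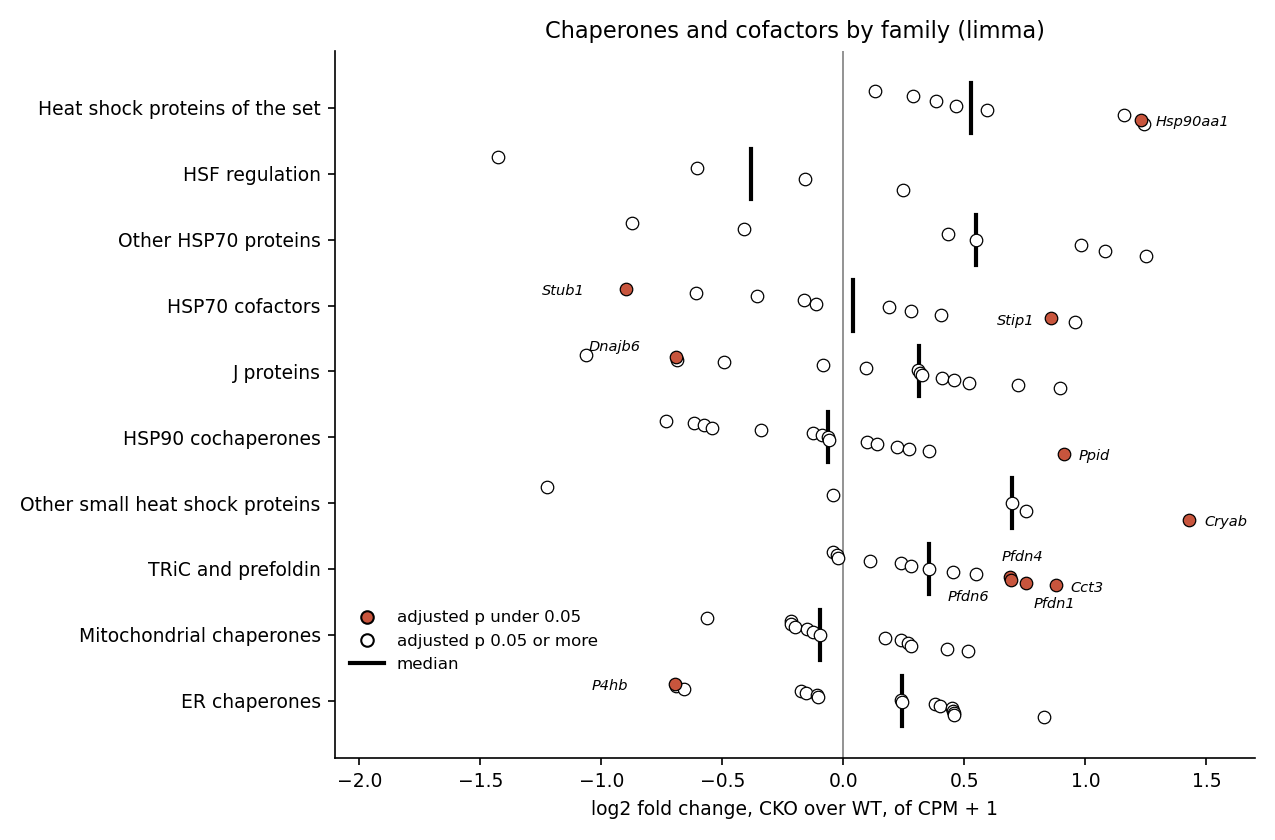
Log2 fold change (CKO over WT, of CPM + 1, limma) of the 8 tested heat shock proteins and of 97 genes in 9 chaperone lists, 1 circle a gene, spread vertically within its list for legibility, with black bars for medians and filled, named circles for an adjusted p under 0.05. Cryab lies farthest right at 1.43 among the filled circles, 4 filled circles belong to TRiC and prefoldin, and Stub1, Dnajb6 and P4hb are the filled circles left of 0.

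The ER chaperones set the library CKO 2 apart. In CKO 2, 12 of 16 ER chaperones (75%) had their highest level of the 6 libraries, as did 5 of the 8 tested heat shock proteins (62.5%) and 22.4% of all genes. Hspa5 (BiP), the HSP70 of the ER and a standard target of the unfolded protein response, stood at 1700.4, 1664 and 1051 CPM in WT, against 1063, 6803 and 1059.9 CPM in CKO. Dnajc3, which is induced in the same response, had 79.7, 66.0 and 79.4 CPM in WT and 71.5, 481 and 68.5 CPM in CKO. In both genes CKO 1 and CKO 3 lay within the range of WT while CKO 2 stood far above it. Both genes were chosen after their values were seen.

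The median log2 fold change of the ER chaperones was 0.24 with all libraries and -0.29 without CKO 2, so its sign rested on that library. Of the 16 ER chaperones, 1 was called lower, beside 2.6% of all genes, and none higher. This was P4hb, the subunit shared by protein disulfide isomerase and collagen prolyl hydroxylase. P4hb fell from 3454, 3128 and 3389 CPM in WT to 2124, 2104 and 1919 CPM in CKO (log2 fold change -0.70, SE 0.13, limma adjusted p 0.0152). Serpinh1 (HSP47), the collagen-specific chaperone and the highest of the list in mean CPM, stood at 7506, 8153 and 6871 CPM in WT and 5678, 3259 and 5783 CPM in CKO (log2 fold change -0.66, limma adjusted p 0.110). It was lowest in CKO 2, where Hspa5 was highest. Of the 8 tested heat shock proteins, 1 (Hspb1) exceeded its next highest library by more than 2 times in CKO 2. So did 5 of the 16 ER chaperones and 294 of the 12155 genes tested.

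**Figure D4:**
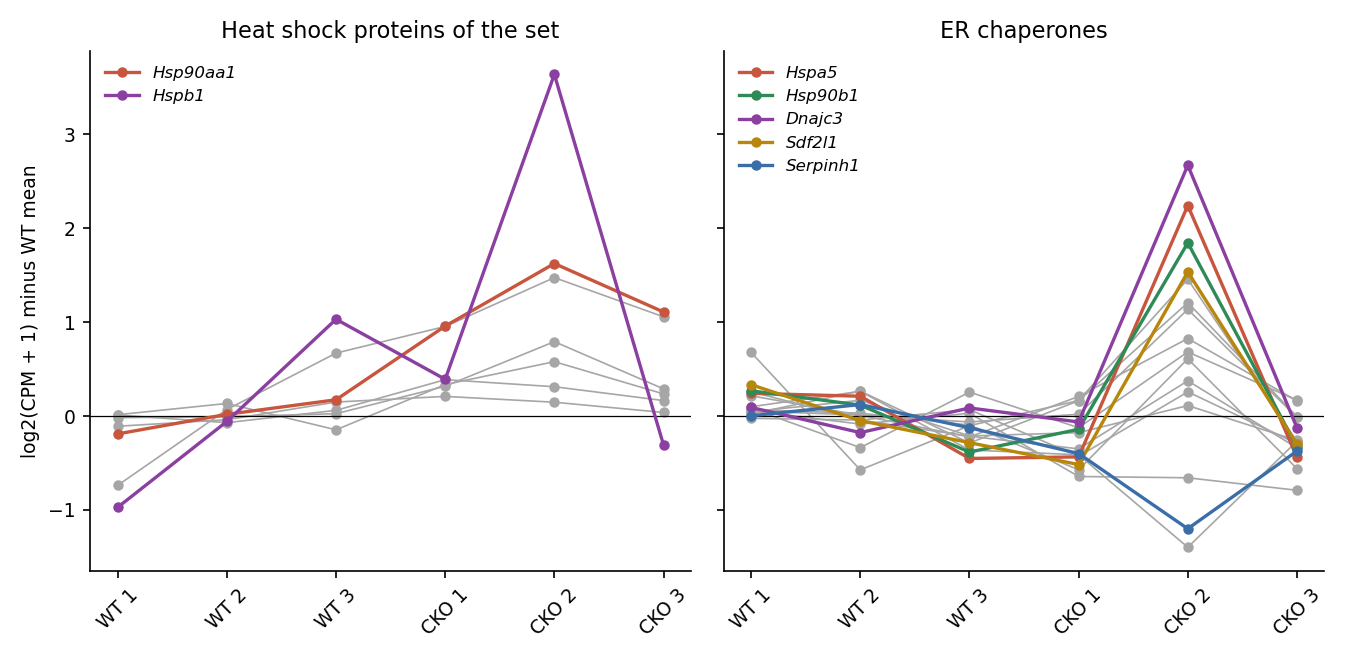
Level on the log2(CPM + 1) scale minus the WT mean, for 7 tested heat shock proteins (left, without Hspa8, which lay at the floor) and 16 ER chaperones (right) in each library; lines join the values of 1 gene and imply no order of libraries. Hspb1 on the left and Hspa5, Dnajc3, Hsp90b1 and Sdf2l1 on the right peak in CKO 2, whereas Hsp90aa1 lies above the WT libraries in all 3 CKO libraries.

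Other groups of genes differed between the same libraries, and their part in the results on heat shock proteins was not tested. Of all genes tested, 3.18% were called higher and 2.6% lower, the shares to set beside each list here. Immediate early genes, which respond within minutes to stress and growth signals, had a summed level of 346 to 428 CPM in WT and 603 to 828 CPM in CKO. Of 19 tested, 5 (Fos, Fosl1, Junb, Ier3 and Btg2) were called higher and none lower. Fos stood at 2.17, 2.25 and 1.69 CPM in WT, against 13.8, 13.0 and 11.3 CPM in CKO, with a log2 fold change of 2.17 (limma, adjusted p 0.00795). These were 3, 3 and 2 reads in WT, at or under the floor, and 20, 18 and 13 reads in CKO. Epidermal markers summed to 32.9 to 62.3 CPM in WT and 219 to 226 CPM in CKO, with 2 of 5 tested higher (Sbsn and Perp) and Krt1 and Krt15 at 0 in 3 or more libraries. Macrophage and osteoclast markers summed to 153 to 395 CPM in WT and 304 to 317 CPM in CKO, with 1 of 10 higher (Cd68). Red cell markers reached 0.725 to 5.25 CPM in WT and 2.06 to 28.9 CPM in CKO, and none of 2 tested was called by limma, with 0 at an unadjusted p under 0.05. Endothelial markers reached 1.50 to 5.07 CPM in WT and 1.38 to 7.94 CPM in CKO, with 5 of 6 at 0 in 3 or more libraries. Osteoblast markers summed to 487 to 708 CPM in WT and to 1316, 375 and 1407 CPM in CKO 1, 2 and 3, where CKO 2 was the lowest of the 6 libraries. None of 7 was called by limma. At an unadjusted p under 0.05, 2 were higher and 1 lower, beside 11.2% and 10.1% of all genes.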

How the data were processed

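The RNA of growth plate chondrocytes was made into stranded mRNA libraries. The authors deposited CPM per gene and library; per the labels, cutadapt 2.5, HISAT2 and featureCounts 1.6.3 were used, and the genome build, the annotation and the treatment of reads with several matches are not given in the sources used here. The CPM of each library were whole multiples of 1 read (100% of values, tolerance 0.001 reads), so reads were recovered. The file holds no comparisons by the authors.

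Because the values are CPM, limma 3.58.1 (R 4.3.3) was used on log2(CPM + 1) of genes that averaged 1 CPM or more, with empirical Bayes moderation with trend and Benjamini-Hochberg adjustment over all 12155 genes. CKO (n = 3) was compared with WT (n = 3) without covariates. Fold changes are on the log2(CPM + 1) scale, which understates those of low genes. The edgeR 4.0.16 quasi-likelihood test on the recovered reads called 374 genes higher and 363 lower. Further alternatives were DESeq2 1.42.0, a pseudocount of 0.1, no filter, TMM scaling, the replicate number as a block, each library left out and the criterion of the study (unadjusted p under 0.05, log2 fold change above 1 or below -1). On simulated counts with a log2 fold change of 2 set in 200 genes, limma recovered 66.0% of the 197 it tested, with 12 false calls among 12098 genes.

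The members and lists were chosen with earlier results of these data known, so no list is independent support. Named were all members, list genes with an adjusted p under 0.05, and of each chaperone list the gene with the highest mean CPM. That mean was over the 6 libraries and not scaled by exon length. For Hspa1a, the 5 genes of at least 10 CPM with the most similar pattern were named. Others are said to be chosen after their values were seen. Chaperones and markers without a used row, such as Hspa1l and Cct6a, were not analysed here. Positions are of GENCODE M21 (GRCm38), matched by Ensembl identifier, and promoters of RefSeq (GRCm38.p6). Near-identical copies were counted with BLAST 2.17.0 against annotated transcripts (at least 90% over 300 bp).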

Additional observations from a re-analysis of the deposited data

How the results depend on the processing

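Of 93 values of single heat shock proteins under alternatives, 89 kept their direction and their side of the threshold, 2 of Hsp90aa1 fell short (without WT 1 and without WT 2), 2 of Hspb8 passed, and none changed sign. Across 12 alternatives the adjusted p of Hsp90aa1 ranged from 0.000181 to 0.0570 and that of Hspb8 from 0.0221 to 0.189. The number of heat shock proteins called higher, 1 by limma, was 2 with DESeq2, 2 by the criterion of the study, and 0 to 2 with a library left out, and none was called lower under any alternative; the cause of these shifts was not tested. Over all genes, 387 higher and 316 lower calls became 644 and 620 by that criterion, and ranged over 123 to 692 and 79 to 606 with a library left out, with more calls without CKO 2 and fewer without WT 1, WT 2, CKO 1 or CKO 3. The 7 higher and 3 lower calls of the chaperone lists ranged over 0 to 10 and 0 to 8 with a library left out, and became 3 higher and 3 lower by the criterion.

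The replicate numbers are shared by the genotypes, and the labels do not say whether same-numbered libraries were paired. The paper states that mice were compared with littermates. Deviations of same-numbered libraries from their group means had correlations of 0.04, -0.13 and -0.10 across genes. Those of differently numbered libraries ran from -0.12 to 0.16, so the correlations cannot tell whether the numbers mark pairs. With the replicate block, 225 genes were called higher and 160 lower, and 2 and 1 in the chaperone lists; it changed no call of a heat shock protein.

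Few counted reads limit the HSP70 genes and Hspb1, and the cause of the low counts was not tested. The edgeR filter left out Hspa8 and Hspb1, and DESeq2 gave no adjusted p for Hspa8. The summed HSP70 pair, represented by Hspa1a alone, kept its direction but held 4 reads in all. With 3 libraries a group, no exact permutation test can go below 0.1.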

Other observations

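The genes of at least 10 CPM whose pattern over the 6 libraries was most like that of Hspa1a, among 6827 ranked by Pearson correlation of log2(CPM + 1), were Nln (0.99), Speg (0.99), Reep3 (0.99), Atic (0.97) and Coq7 (0.97). The pattern rests on 4 reads in all, 3 of them in CKO 2, and is no finding.

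Other chaperones, chosen after their values were seen, did not pass by limma. Hspa4, a relative of Hsph1, stood at 5.80, 15.0 and 13.5 CPM in WT, against 15.8, 47.6 and 13.9 CPM in CKO (log2 fold change 0.98, limma adjusted p 0.280, edgeR 0.224, DESeq2 0.251), again with its highest level in CKO 2. Hspb6, a small heat shock protein of muscle, had 50.0, 61.5 and 53.2 CPM in WT and 104, 76.5 and 101 CPM in CKO, with no overlap (log2 fold change 0.76, limma adjusted p 0.0509), and it was called by edgeR on the recovered reads (adjusted p 0.0446) but not by DESeq2 (adjusted p 0.0802). The TRiC subunit Cct8 had 383, 384 and 351 CPM in WT and 509, 608 and 522 CPM in CKO, with no overlap (log2 fold change 0.55, limma adjusted p 0.0524, edgeR 0.0555, DESeq2 0.0758).

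Hsp90b1 (GRP94), the HSP90 of the ER, had 93.5, 84.0 and 59.1 CPM in WT and 70.1, 281 and 61.5 CPM in CKO, and Sdf2l1, a partner of Hspa5, had 35.5, 27.0 and 22.8 CPM in WT and 19.3, 83.0 and 22.5 CPM in CKO. Both were also chosen after their values were seen and were highest in CKO 2. Without CKO 2, 10.8% of 12055 genes were called by limma, compared with 5.78% of 12155 with all libraries.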
